A study of Mus musculus with 6 samples.

Results

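The genes described here are the salt-inducible kinases Sik1, Sik2 and Sik3 with the class IIa histone deacetylases Hdac4, Hdac5 and Hdac7, the transcription factors Mef2a, Mef2c and Mef2d and the coactivator Crtc3. They were chosen by name as 10 genes of 1 signalling route, of 17020 genes tested. Earlier results of these data were known when they were chosen. All 10 had a probe set annotated to exactly 1 gene, and all 10 passed the filter on dim probe sets. They were measured in chondrocytes of the growth plate, the cartilage that lengthens a bone, from femurs and tibiae of mice at postnatal day 30. The control group and the group with a conditional mutation of Lkb1 each held 3 samples, on a background given as mixed FVB, 129S6 and C57CL/6. Neither the Cre driver nor the floxed alleles of either group, nor the number of animals behind a sample, is given in the sources used here. The replicates are labelled biological, so the p-values cover the spread between these samples. Every sample was hybridised to its own Affymetrix array, and values are given as log2(intensity + 1).

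Salt-inducible kinases belong to the family of kinases that LKB1, the product of Stk11, switches on by phosphorylating their activation loop, and protein kinase A (PKA) restrains them downstream of cyclic AMP. Active SIKs phosphorylate class IIa histone deacetylases and the CRTC coactivators, which are then held in the cytoplasm by 14-3-3 proteins. In the nucleus, HDAC4 represses MEF2C and RUNX2, which drive the enlargement (hypertrophy) of growth plate chondrocytes, while CRTCs raise transcription of CREB target genes, of which Sik1 is itself a known example. Mutants were set against controls to ask how transcripts of this route differ when Lkb1 is mutated; activity and location of the proteins were not measured.

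Promoter sequences are shown because the short core of the cyclic AMP response element, TGACG, and the MEF2 consensus are the letters through which CREB and MEF2 bind DNA. RefSeq promoter windows of GRCm38.p6, from 250 bases before to 50 after a transcription start, were found for 9 of the 10 genes, with 14 windows in all. Sik1 had no entry. On either strand TGACG stood in 4 of the 14 windows, those of Sik2, Sik3, Hdac4 and Hdac5, and in 20.8% of all 32851 windows. Each of these 4 windows held it 2 or 3 times, and 5.01% of all windows held it at least 2 times. The full palindrome TGACGTCA, which contains TGACG, stood in 0 of the 14 and in 1.79% of all windows. The windows of Sik2, Sik3 and Hdac4 are rich in G and C, at 80.0%, 73.7% and 68.0%. The MEF2 consensus matched in the windows of Hdac5 and Mef2a and in 3.19% of all windows. In the following stretches, capitals mark TGACG or its reverse complement in Sik3 (chr9:46012675-46012779, plus strand), Hdac4 (chr1:92180342-92180456, minus strand) and Sik2 (chr9:51009054-51009083, minus strand). Capitals mark the MEF2 consensus in Hdac5 (chr11:102230173-102230202, minus strand) and Mef2a (chr7:67372844-67372873, minus strand).
Sik3: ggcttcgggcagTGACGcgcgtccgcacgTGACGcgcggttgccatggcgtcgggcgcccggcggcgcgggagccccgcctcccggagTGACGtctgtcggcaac
Hdac4: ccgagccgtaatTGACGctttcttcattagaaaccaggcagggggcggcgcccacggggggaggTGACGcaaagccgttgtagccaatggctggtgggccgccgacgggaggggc
Sik2: ccggcccccTGACGtcggctcaCGTCAgcg
Hdac5: gggtctgagcCTATTTTTAGctcggggtcg
Mef2a: cgaggcctgactcCTAAAAATAGccccggt
Relative to the transcription start, the matches of Sik3 begin at -133, -116 and -57, those of Hdac4 shown here at -103 and -51, and those of Sik2 at -1 and 13. A match is a description of letters, and binding was not measured.

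The arrays carried chondrocyte markers and, beside them, marrow signal that differed between the groups. All 10 chondrocyte markers, among them Col2a1 and Acan, exceeded background on all 6 arrays, with a mean of 11.79 to 11.94 in the controls and 11.78 to 11.87 in the mutants; background was the 95% point of 1035 olfactory receptor probe sets, 6.40 to 6.73 per array. Stk11, the mutated gene, stood at 8.68, 9.08 and 9.67 in control replicates 1, 2 and 3 and between 7.39 and 7.52 in the mutants; where its probes lie relative to the deleted part was not analysed here. Marrow signal, taken as the mean of 28 markers of red cell, neutrophil and B cell lineages, was 8.42, 9.12 and 9.85 in control replicates 1, 2 and 3, against 5.92 to 6.17 in the mutants, and 26 of these 28 genes exceeded background in all controls against 5 in all mutants. Stk11 thus rose among the controls with the marrow signal. With the marrow mean as a covariate its difference was 0.32 (SE 0.37, limma adjusted p = 0.66). That covariate separates the groups completely, so this value extends the trend within groups over a range that holds no array. Means of 10 endothelial markers were 6.59 to 6.72 in the controls and 7.20 to 7.42 in the mutants, those of 10 skeletal muscle markers 6.66 to 6.86 and 6.98 to 7.13, those of 8 macrophage markers 7.56 to 7.78 and 8.08 to 8.71, and those of 10 fibrous tissue markers 9.02 to 9.42 and 10.36 to 10.44. For 8 osteoclast markers they were 6.74 to 7.05 in the controls and 7.18 to 7.28 in the mutants, with 3 of the 8 above background in all controls. For 6 osteoblast markers they were 7.14 to 7.50 and 7.47 to 7.57. Their part in the results that follow was not tested, and in bulk RNA fewer cells of a type and less RNA per cell cannot be told apart.

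Sik1, Sik2 and Hdac4 rose in the mutants, and Mef2c fell. With limma at an adjusted p of 0.05, 3 of the 10 genes were called higher and 1 lower, against 7.84% higher and 6.82% lower among all genes tested (14.7% in either direction). The groups did not overlap for 8 of the 10 genes, 6 of them higher and 2 lower in the mutants, where 36.7% of all genes tested did not overlap, 20% higher and 16.7% lower. The median difference of the 10 genes was 0.16 on the log2 scale and that of all genes 0.03. Because the 10 genes were chosen with earlier results known, these counts describe them and are no test of the set. Each of the 10 exceeded background on all 6 arrays. The number called higher was 1 without mutant replicate 3, and the number called lower was 0 without mutant replicate 3 and without control replicate 2 and 2 without control replicate 3.

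**Figure D1:**
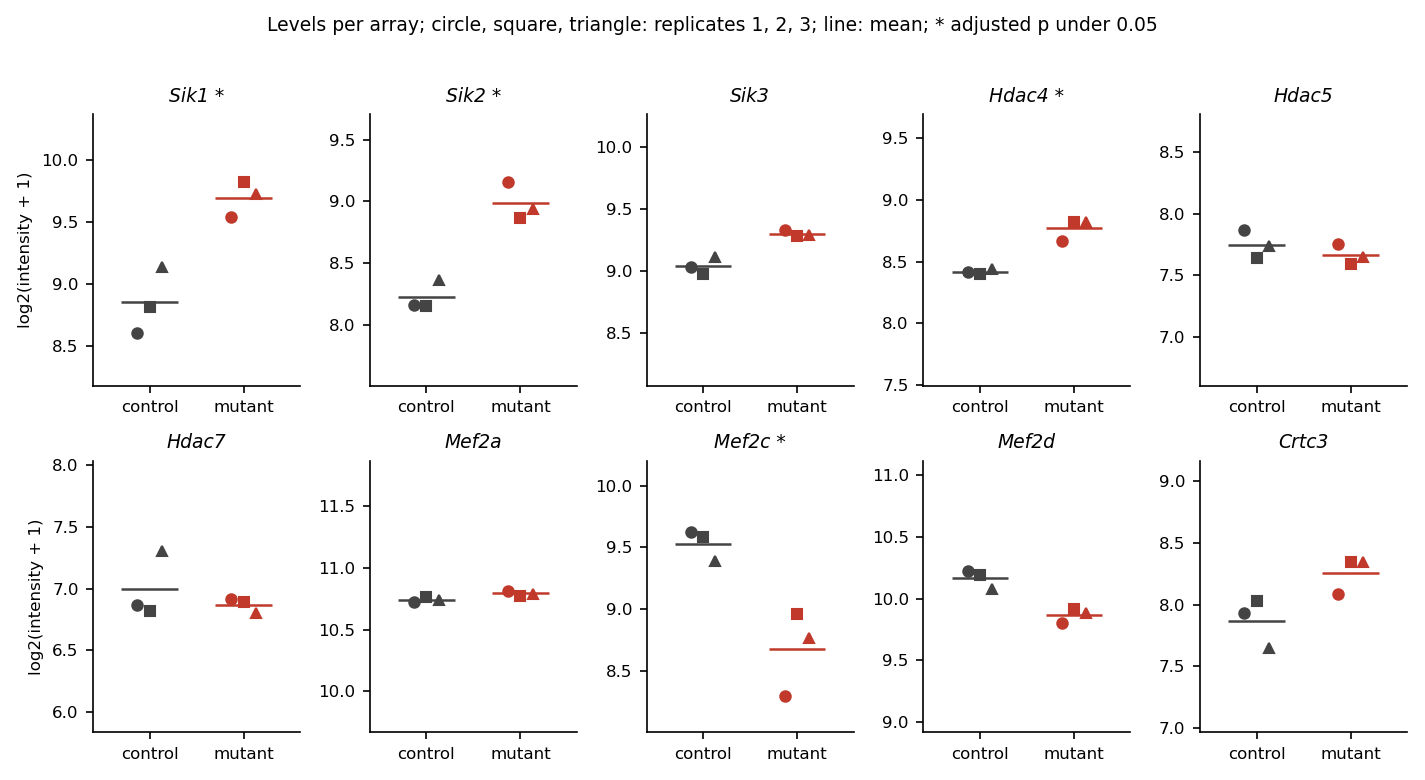
Level of each of the 10 genes on each array as log2(intensity + 1), on axes of equal span; points are single arrays, with circles, squares and triangles for replicates 1, 2 and 3, lines are group means, and stars mark an adjusted p under 0.05. All 3 mutants lie above all controls for Sik1, Sik2, Sik3, Hdac4, Mef2a and Crtc3 and below them for Mef2c and Mef2d, while the groups overlap for Hdac5 and Hdac7.

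For each SIK transcript the lowest mutant lay above the highest control, as it did for 20% of all genes tested. The change passed the test for Sik1 and Sik2. Sik1 (probe set 10449741), a kinase whose own gene responds to cyclic AMP, stood at 8.60, 8.82 and 9.14 in control replicates 1, 2 and 3 and at 9.54, 9.82 and 9.73 in mutant replicates 1, 2 and 3. The lowest mutant lay above the highest control, and the controls were spread more widely (SD 0.27) than the mutants (SD 0.14). Sik1 rose by 0.85 (SE 0.15, n = 3 per group), 1.80-fold, with a limma adjusted p of 0.0107. Without mutant replicate 3 the difference was 0.83 and the adjusted p 0.0534.

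Sik2 (probe set 10593430), a kinase known for its action on CRTC2, showed the clearest separation of the family. Its level was 8.16, 8.16 and 8.37 in the controls and 9.16, 8.87 and 8.93 in the mutants. The mutants stood apart from the controls by more than the range within either group. Sik2 rose from 8.23 ± 0.12 to 8.99 ± 0.15 (SD, n = 3 each), by 0.76 (SE 0.11), 1.69-fold, with an adjusted p of 0.0055, and it was called with each of the 6 arrays left out.

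Sik3 (probe set 10584977), the family member required for chondrocyte hypertrophy in mice, differed least. It stood at 9.03, 8.97 and 9.11 in the controls and at 9.33, 9.28 and 9.29 in the mutants, close together within each group. The difference was 0.26 (SE 0.08, 95% confidence interval 0.07 to 0.46), and the adjusted p was 0.0809. Sik2 exceeded Sik3 in its change by 0.50 (SE 0.08) and Sik1 exceeded Sik3 by 0.59 (SE 0.16), as differences of log2 values within an array; Sik1 and Sik2 differed in their change by 0.09 (SE 0.20). For the first pair of contrasts the groups did not overlap, and the exact two-sided permutation p was 0.1, the smallest that 3 against 3 arrays allow. For the last it was 0.7. Over the 7 such contrasts made among the 10 genes the adjusted exact p was 0.117 or higher.

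Among the controls, Sik1 and Sik2 were highest on the array with the most marrow signal, control replicate 3. The mutants, with the least marrow signal, had still higher levels of both. A setting added after the data were seen left out control replicates 2 and 3. It keeps the control with the least marrow signal and assumes that this control varies like the mutants. The differences were then 1.097 for Sik1 and 0.828 for Sik2. With the marrow mean as a covariate they were 1.92 (Sik1, limma adjusted p = 0.0811) and 1.23 (Sik2, 0.139), and neither gene was called. The marrow signal separates the groups completely, and its part in the rise of Sik1 and Sik2 was not tested.

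**Figure D2:**
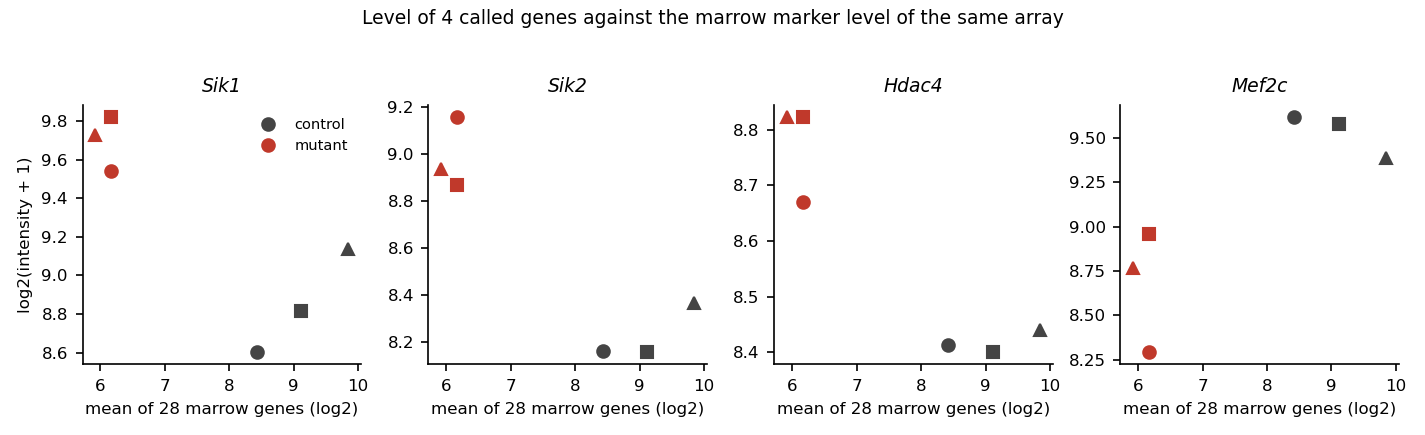
Level of Sik1, Sik2, Hdac4 and Mef2c on each array (vertical axis, log2(intensity + 1), spans differ) against the mean of the 28 marrow markers on the same array (horizontal axis, log2); black points are controls, red points mutants, and shapes are replicates as above. The mutants sit between 5.92 and 6.17 on the horizontal axis and the controls between 8.42 and 9.85; from the first to the last control along this axis Sik1 goes from 8.60 to 9.14, and the mutants lie at 9.54 to 9.82.

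Of the class IIa deacetylases, Hdac4 rose, while Hdac5 and Hdac7 overlapped between the groups. Hdac4, the member known for holding back chondrocyte hypertrophy, has 2 probe sets, and both were higher in all mutants. The brighter one (10356628) stood at 8.41, 8.40 and 8.44 in the controls and 8.67, 8.82 and 8.82 in the mutants. The control values lie within a range narrower than the gap to the lowest mutant. Hdac4 rose by 0.35 (SE 0.09), 1.28-fold, with an adjusted p of 0.0336. This call ended without control replicate 2 (adjusted p = 0.104) and without mutant replicates 1, 2 and 3 (0.06, 0.131 and 0.148). The other probe set (10356626) stood at 8.17, 8.05 and 8.22 in the controls and at 8.79, 8.72 and 8.76 in the mutants. Its difference was larger, 0.61 (SE 0.09), with an adjusted p of 0.00495 in a fit of 18563 single probe sets in which 7.76% were called higher and 6.49% lower.

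Hdac5 (probe set 10391577), a close relative of Hdac4 that also binds MEF2 proteins, was at 7.87, 7.64 and 7.74 in the controls and at 7.75, 7.59 and 7.65 in the mutants. The difference was -0.08 (95% confidence interval -0.31 to 0.15, adjusted p = 0.632). Hdac7 (probe set 10432006), known from endothelium and lymphocytes, was at 6.87, 6.82 and 7.31 in the controls and at 6.91, 6.89 and 6.81 in the mutants, with 1 control above all other arrays. That control is replicate 3, the array with the most marrow signal. The difference was -0.13 (95% confidence interval -0.45 to 0.19, adjusted p = 0.594), and it was 0.03 without that array. Hdac9, the remaining class IIa gene and not among the 10, differed by -0.24 (SE 0.13, adjusted p = 0.262), with overlapping groups. The change of Hdac4 exceeded that of Hdac5 by 0.44 (SE 0.12) and that of Hdac7 by 0.48 (SE 0.16), with no overlap between the groups and an exact two-sided permutation p of 0.1 each, the smallest possible.

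Of the MEF2 factors, Mef2c fell, Mef2d was lower without passing the test, and Mef2a differed little. Mef2c (probe set 10406434), the MEF2 factor that drives hypertrophy, stood at 9.62, 9.58 and 9.39 in the controls and at 8.29, 8.96 and 8.77 in the mutants. Every mutant lay below every control, and mutant replicate 1 lay well below the other 2. Mef2c fell by 0.86 (SE 0.17), 1.81-fold, with an adjusted p of 0.0172. The adjusted p was 0.0654 without control replicate 2, 0.057 without mutant replicate 3 and 0.0745 without control replicates 2 and 3, where the difference was -0.95. Endothelium, muscle and B cells also express Mef2c. Of their markers, 8 of 10 endothelial and 3 of 10 muscle genes were called higher in the mutants and 0 lower, and 7 of 9 B lymphoid genes were called lower. Of those called higher, the muscle gene Myl1 was below background on all arrays. The muscle gene Actn3 and the endothelial genes Kdr and Tie1 were below it in all controls. Over all genes tested 7.84% were called higher and 6.82% lower. Among the controls Mef2c was lowest on the array with the most marrow signal, and all mutants, with less marrow signal, lay below the controls. With the marrow mean as a covariate the difference was -1.41 and the limma adjusted p 0.241. The marrow signal separates the groups completely, and the part of these cell types in the fall of Mef2c was not tested.

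Mef2d has 2 probe sets with different values. The brighter one (10493177) stood at 10.23, 10.19 and 10.08 in the controls and at 9.81, 9.92 and 9.88 in the mutants, without overlap. The difference was -0.29 (SE 0.09, 95% confidence interval -0.50 to -0.09, adjusted p = 0.0642). It was -0.34 without control replicate 3, with an adjusted p of 0.0415. The dimmer probe set (10493189) differed by -0.11 (SE 0.11, adjusted p = 0.542), with overlapping groups. Mef2a (probe set 10564451) lay between 10.72 and 10.77 in the controls and between 10.77 and 10.82 in the mutants. These ranges do not overlap, yet the difference was 0.05 (95% confidence interval -0.13 to 0.23, adjusted p = 0.717). The change of Mef2c differed from that of Mef2a by -0.91 (SE 0.22) and from that of Mef2d by -0.56 (SE 0.17), with groups apart and an exact two-sided permutation p of 0.1 each. Mef2b had no probe set of its own.

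Crtc3 (probe set 10565002), a coactivator of CREB that SIKs keep out of the nucleus, was at 7.94, 8.03 and 7.65 in the controls and at 8.09, 8.34 and 8.34 in the mutants. All mutants lay above all controls, but mutant replicate 1 by only a small step. The difference was 0.39 (SE 0.13, 95% confidence interval 0.09 to 0.69) and did not pass the test (adjusted p = 0.0891). The other CRTC genes, not among the 10, were also higher in every mutant than in any control, as were 20% of all genes tested. Crtc1 differed by 0.23 (SE 0.09, adjusted p = 0.135) and Crtc2 by 0.19 (SE 0.09, adjusted p = 0.198).

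**Figure D3:**
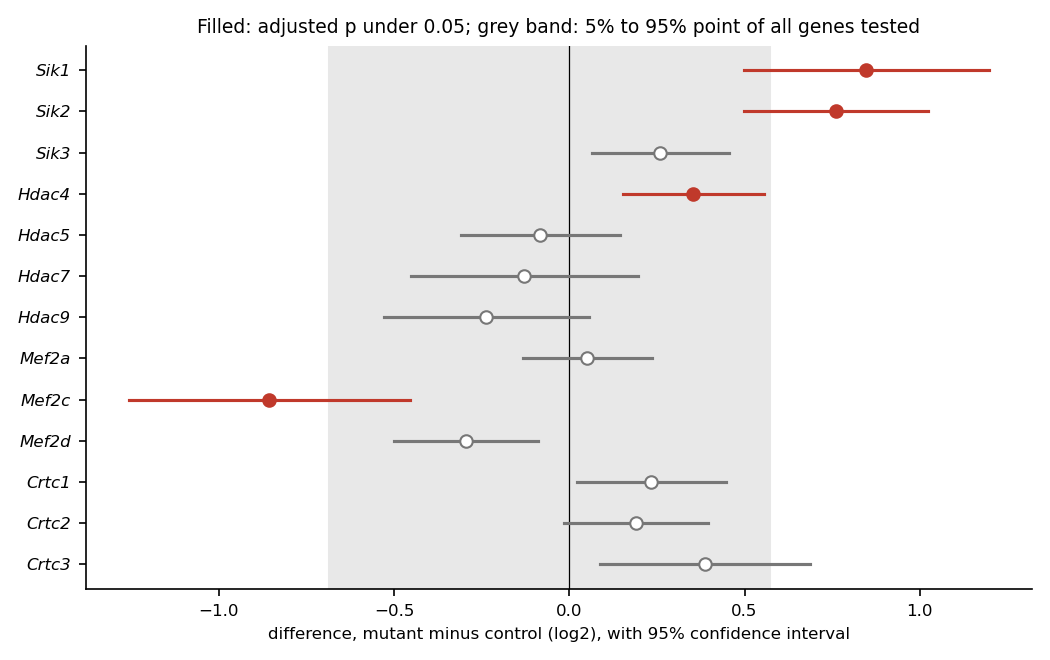
Difference between mutants and controls (horizontal axis, log2) for the 10 genes and for Hdac9, Crtc1 and Crtc2, with 95% confidence intervals from limma; filled red points have an adjusted p under 0.05, and the grey band runs from the 5% point (-0.69) to the 95% point (0.57) of the differences of all genes tested. Sik1 and Sik2 lie to the right of the band and Mef2c to its left, while Hdac4, at 0.35, is called but lies inside it.

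The array profiles of the 10 genes were compared with those of all genes tested by the root mean square distance of their log2 values over the 6 arrays, each profile centred on its mean. Among the 10, Sik3 and Hdac4 were the closest pair, at 0.085. Mef2c lay closest to Bmp6, a growth factor of hypertrophic chondrocytes (distance 0.0974), which differed by -0.89, and then to Cep85l (0.0988), which was below background on mutant replicate 1. Sik1 lay closest to Esam, an adhesion gene of endothelium that is among the endothelial markers (distance 0.116, difference 1.00). Esam was below background on control replicate 2, and the next neighbour of Sik1, Hs6st2 (0.123), was below it on all arrays. Hdac4 lay closest to Cry1, a repressor of the circadian clock (0.0201, difference 0.34). Next to Hdac4 came Col18a1 (0.0259), which was below background on control replicates 2 and 3. Sik2 lay closest to Gabra3, which was below background on all arrays, and then to Cdh2, N-cadherin (0.067), which was below background in all controls. Such neighbours follow from 6 values each. Those of Sik3, Hdac5, Hdac7, Mef2a, Mef2d and Crtc3 are not described here.

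Around the 10 genes, 9 lists of other genes of the route were examined, chosen with earlier results of these data known. Beside the counts called in these lists stand 7.84% higher and 6.82% lower among all genes tested. Of the LKB1 complex, Stk11 and Stradb, a pseudokinase that activates LKB1, were lower and the other 3 were not called. Stradb differed by -1.67 (adjusted p = 0.0246) but rose among the controls with the marrow signal (6.72, 7.44 and 8.44 in replicates 1, 2 and 3), and its mutant levels of 5.81 to 5.92 were below background. It lost its call when control replicate 2 or any mutant was left out (adjusted p of 0.074 to 0.0839).

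Genes known to be switched on by cyclic AMP and CREB were mostly higher in the mutants. Of 14 tested, 9 rose and 0 fell by the limma test (11 and 0 at an unadjusted p under 0.05), with a median difference of 0.80, and for 11 the groups did not overlap, all higher. Among all genes tested 7.84% were called higher and 6.82% lower, and 20% were higher without overlap. Nr4a3, an orphan nuclear receptor, stood at 8.75, 9.24 and 8.90 in the controls and at 10.15, 10.33 and 10.33 in the mutants. It rose by 1.31 (SE 0.14, adjusted p = 0.00145), 2.48-fold, and its relative Nr4a1 by 1.17 (SE 0.09, adjusted p = 0.000579). Pde4d, a phosphodiesterase that breaks down cyclic AMP, was at 8.18, 8.26 and 8.40 in the controls and at 9.52, 9.49 and 9.65 in the mutants, an increase of 1.27 (SE 0.10, adjusted p = 0.000501). For both Nr4a3 and Pde4d the gap between the groups was wider than the range within either. Id1, better known as a target of BMP signalling, rose by 1.19 (adjusted p = 0.0143); its call ended without control replicate 2, mutant replicate 1 and mutant replicate 2 (0.0591, 0.0613 and 0.0573). Its control levels fell as the marrow signal rose (9.25, 8.65 and 8.32), and without control replicates 2 and 3 its difference was 0.68. Pde4b (1.15), Nr4a2 (1.01), Pde10a (0.87), Fos (0.74) and Per1 (0.41) make up the rest of the 9 and were picked out with their values known. Per1 kept its call without control replicate 3 and lost it with any other single array left out (adjusted p up to 0.164). Without control replicate 2, mutant replicate 1 or mutant replicate 2 the count was 7. Sik1 follows the same direction but was not counted in this list.

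In the promoter windows of this list TGACG stood in 12 of 19, of 11 among 14 genes, against 20.8% of all windows, and in 7 at least 2 times, against 5.01% of all windows. These 14 genes are not the 14 tested: Areg had a window but was not tested, and Id1 was tested but had no window. The windows of Nr4a1, Nr4a2 and Nr4a3 each held it 4 times. A stretch of the Nr4a1 window (chr15:101266756-101266845, plus strand) is shown beside those of Sik3 and Hdac4 above, with capitals for the reverse complement of TGACG; its matches begin at -69 and -40.
Nr4a1: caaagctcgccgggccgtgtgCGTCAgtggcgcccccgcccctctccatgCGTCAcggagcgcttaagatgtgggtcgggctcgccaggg
This list was named for its response to CREB, so motif matches in it are not independent of the choice. Pde4d and Pde10a rose with no match in their windows, while Junb, Dusp1, Rgs2 and Ppargc1a had a match and were not called.

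Of 7 CREB factors and partners, Crem, a CREB relative whose short form represses cyclic AMP responses, rose by 0.74 (SE 0.09, adjusted p = 0.00241), from 6.46 to 6.63 in the controls to 7.21 to 7.30 in the mutants. Control replicates 2 and 3 did not exceed background for Crem, so this difference is limited by it. The other 6, Creb1 among them, were not called. Upstream, of 13 genes from the PTHrP receptor to PKA, 3 rose and 2 fell, where the shares over all genes tested were 7.84% and 6.82%. Pth1r, the receptor through which PTHrP raises cyclic AMP, fell by 1.13 (SE 0.10, adjusted p = 0.00066). Prkar2b, a regulatory subunit of PKA, fell by 1.23 (SE 0.17, adjusted p = 0.00437). Its control levels were 8.45, 8.39 and 8.99 in replicates 1, 2 and 3, highest on the array with the most marrow signal. With the marrow mean as a covariate, which separates the groups completely, its difference was -0.18 (limma adjusted p = 0.864). The subunit genes Prkar1b and Prkar2a rose by 0.71 and 0.61 (adjusted p of 0.0349 and 0.0428), as did the adenylyl cyclase gene Adcy3 by 0.46, which was picked out with its value known. Among the controls Prkar1b (8.33, 8.01 and 7.60), Prkar2a (8.22, 7.93 and 7.62) and Adcy3 (7.73, 7.65 and 7.42) fell as the marrow signal rose. Without control replicates 2 and 3 their differences were 0.36, 0.31 and 0.33. All 3 of these increases lost their call when control replicate 2 or any mutant was left out, where the count was 0; adjusted p reached 0.117 for Adcy3, 0.127 for Prkar1b and 0.157 for Prkar2a, which also lost its call without control replicate 3 (0.0587).

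Among other kinases known to phosphorylate class IIa deacetylases, 3 of 12 rose and 1 fell. For this and the next lists, 7.84% of all genes tested were called higher and 6.82% lower. Camk4, a calcium-dependent kinase, stood at 7.28, 7.06 and 6.77 in the controls and at 8.14, 7.99 and 7.93 in the mutants. It rose by 0.98 (SE 0.14, adjusted p = 0.00488), while its control levels fell as the marrow signal rose. Camk2g (0.62, adjusted p = 0.0495) and Prkd1 (0.43, adjusted p = 0.0329) rose, Prkd1 from levels below background on control replicates 2 and 3, and Mark2, another kinase that LKB1 activates, fell by 0.36 (adjusted p = 0.0448). These last 3 genes lost their call when control replicate 2 or any mutant was left out, with adjusted p of up to 0.162, 0.133 and 0.145; Camk2g and Mark2 also lost it without control replicate 3 (0.0956 and 0.0694). Camk2g fell among the controls as the marrow signal rose (8.33, 7.82 and 7.70), and without control replicates 2 and 3 its difference was 0.24. Of the 7 14-3-3 genes, Ywhag rose by 0.52 (SE 0.09, adjusted p = 0.01), with 0.0599 without mutant replicate 3. Of 8 subunits of PP2A, the phosphatase that removes the 14-3-3 docking phosphates, 0 were called by limma and 0 had an unadjusted p under 0.05; the smallest adjusted p of the 2 named by rule were 0.269 for Ppp2cb (-0.15) and 0.331 for Ppp2r5c (-0.14). Of 7 corepressor partners, Cbx5, a heterochromatin protein, fell by 0.36 (adjusted p = 0.0445), a call that ended without control replicate 2 or 3 and without each mutant replicate (up to 0.179). Hdac3, the catalytic partner of class IIa deacetylases, differed by 0.25 (adjusted p = 0.125).

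**Figure D4:**
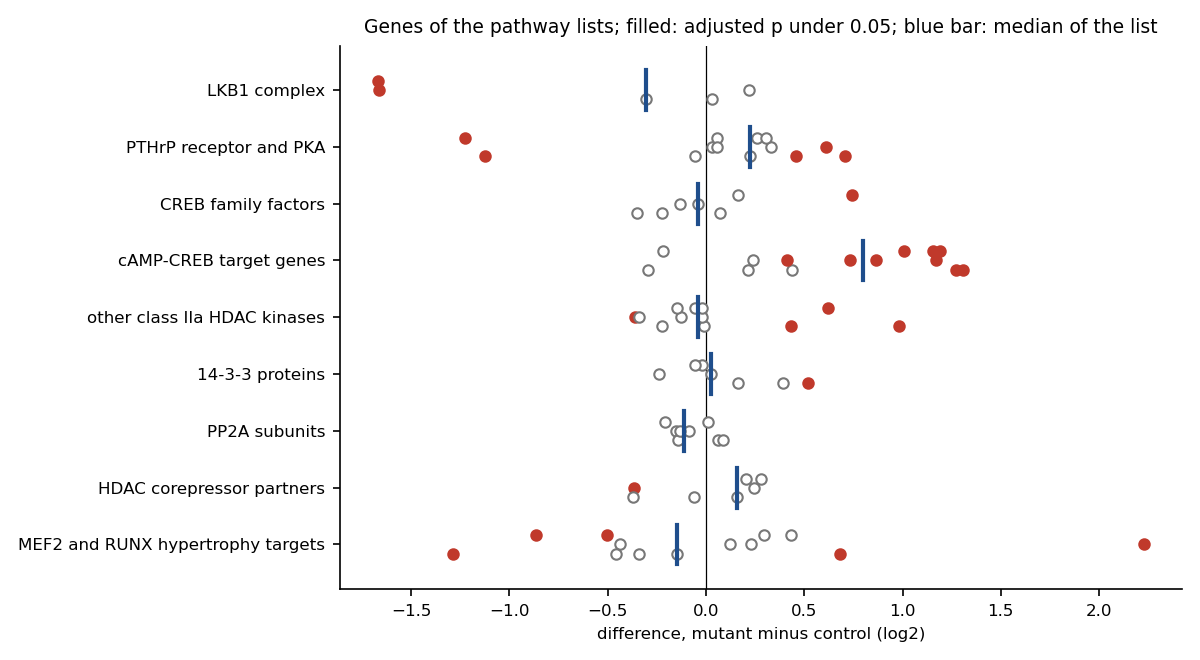
Difference between mutants and controls (horizontal axis, log2) for each tested gene of 9 lists (rows); filled red points have an adjusted p under 0.05 and blue bars are list medians. The list of cyclic AMP and CREB target genes has 9 filled points, all to the right of 0, and a median of 0.80; the other medians lie between -0.31 and 0.23.

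Of 13 targets and partners of MEF2 and RUNX factors in hypertrophy, 2 rose and 3 fell, with a median difference of -0.15. Mmp13, a collagenase of late hypertrophic cartilage, rose by 2.23 (SE 0.25, adjusted p = 0.00194), and Zfp521, a zinc finger protein that antagonises Runx2, rose by 0.68 (SE 0.10, adjusted p = 0.00519). Foxa2 and Panx3, both active in hypertrophic cartilage, fell by 1.29 (SE 0.19, adjusted p = 0.00498) and 0.87 (SE 0.12, adjusted p = 0.00456). The third decrease was in Col10a1 (-0.50), picked out with its value known, with an adjusted p of 0.0539 and 0.0546 without mutant replicates 1 and 2. Over all 10 lists, Hdac9, Crtc1 and Crtc2 included, 28 of 89 tested genes were called, 19 higher and 9 lower, against 14.7% of all genes tested. The number called fell to 18, 17, 17 and 18 without control replicate 2 and mutant replicates 1, 2 and 3.

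**Figure D5:**
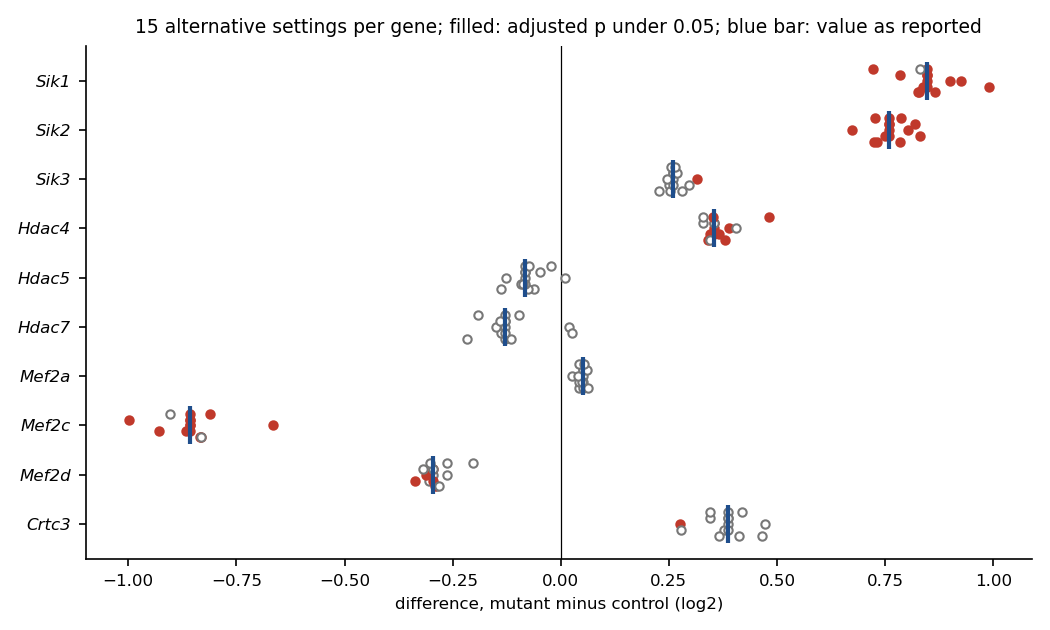
Difference between mutants and controls (horizontal axis, log2) of the 10 genes under 15 alternative settings each (normalisation, filter, probe sets, pseudocount, variance model, replicate block and each array left out); filled red points have an adjusted p under 0.05 and blue bars are the reported values. Sik2 was called under all 15, Sik1 under 14, Mef2c under 13, Hdac4 under 10 and Mef2d under 5; Hdac5, Hdac7 and Mef2a were called under none.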

How the data were processed

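The values are linear intensities per probe set, as the authors deposited them for 35512 probe sets on 6 arrays; per the labels, 300 ng of total RNA was labelled per array. How the authors summarised and normalised them is not given in the labels. Array medians were 82.4 to 90.5, and 0 columns were left out. Probe sets were named through the platform annotation, updated to the GRCm38.p6 RefSeq table by gene number (21698 of 21789 with 1 gene; 1621 had several genes and 12102 none).

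Intensities became log2(intensity + 1). Probe sets in the lowest 25% by mean (below 5.56) were dropped and the brightest per gene kept. The 17020 genes were fitted with limma 3.58.1 in R 4.3.3, Benjamini-Hochberg adjusted, and called at an adjusted p of 0.05; the script was tested on simulated data. The 10 genes, the lists, the tests and the naming rule were chosen with earlier results of these data known. The rule names the 10 genes, Hdac9, Crtc1, Crtc2 and Stk11, per list up to 4 called genes of largest change (or the 2 of smallest p), and 2 nearest profiles per gene; Hdac3, Creb1, Col2a1 and Acan were added after their values were seen. The 10 pathway lists hold 99 genes, of which 89 were tested.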

Additional observations from a re-analysis of the deposited data

How the results depend on the processing

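Of the reported differences of Sik1, Sik2, Sik3, Hdac4, Mef2a, Mef2c, Mef2d and Crtc3, all kept their direction under each of 15 alternatives. Array weights (the fit stopped before convergence) called 8006 genes, 5 of the 10 higher and 2 lower and 60 pathway genes, and added Sik3 (0.32), Mef2d (-0.31) and Crtc3 (0.28). Mef2d was also called with a filter at the median (-0.29), an intensity trend (-0.29) and a pseudocount of 16 (-0.29), each giving 2 calls lower. With the replicate block 2031 genes and 22 pathway genes were called, and Hdac4 was not (0.35, adjusted p = 0.0732); no other call among the 10 ended with it. Deviations of same-numbered arrays correlated at 0.0803, 0.213 and -0.0833, and not every array correlated best with its own number. With 3 arrays per group these correlations cannot decide whether the numbers pair the samples, and the labels do not state it. With single arrays left out, the calls ranged from 936 to 3282 for all genes, from 1 to 3 higher and 0 to 2 lower among the 10, and from 17 to 32 in the pathway lists; differences ranged from 0.72 to 0.99 (Sik1), 0.33 to 0.40 (Hdac4), -0.999 to -0.666 (Mef2c) and -0.34 to -0.26 (Mef2d). Settings added later were of 2 kinds. Without control replicates 2 and 3, 0 of the 10 were called lower, Hdac4 differed by 0.36 (adjusted p = 0.109) and Mef2c by -0.95. With the marrow marker mean as a covariate, which separates the groups completely and so extends the trend within groups over a range that holds no array, 37 genes, 0 of the 10 and 0 pathway genes were called. The differences were then 1.92 (Sik1, adjusted p = 0.0811), 1.23 (Sik2, 0.139), 0.37 (Hdac4, 0.518) and -1.41 (Mef2c, 0.241), in the reported directions; those of Crtc3 (-0.26), Hdac7 (0.82), Stk11 (0.32), Stradb (1.83), Prkar1b (-0.84), Prkar2a (-0.74), Adcy3 (-0.21), Id1 (-0.55), Camk4 (-0.00703), Camk2g (-0.65), Prkd1 (-0.0304) and Cbx5 (0.11) changed sign. With 3 arrays per group the precision of every value is limited.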
